A study of Mus musculus with 6 samples.

Results

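The cytosolic ribosomal protein genes are the genes for the protein subunits of the ribosome that translates messages of the nuclear genome. Members were the rows whose symbol is Rpl or Rps with a number, together with Rplp0, Rplp1, Rplp2 and Rpsa, and without kinases, binding proteins and rows with a pseudogene symbol. The rule found 82 of the 11866 listed genes, 47 of the large subunit and 35 of the small subunit. GENCODE M21 annotates 79 of them as protein coding and 3 (Rpl6l, Rps3a2 and Rps3a3) as processed pseudogenes. Rpl24, Rpl36al, Rpl3l, Rpl10l, Rpl39l and Rps4l were not analysed here. All 82 members reached the mean of 1 FPKM required for testing.

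Poly(A) RNA was sequenced from HCC3-4 cells, a mouse line established from liver tumours of animals that carry a MYC transgene. Cells stably transfected with shSf3b3, a short hairpin against Sf3b3 (KD, 3 libraries), are set against cells with the negative control vector pLKO.1-TRC (PLKO, 3 libraries), and both groups share the MYC-driven origin. Sf3b3 encodes a subunit of the splicing complex SF3b, which binds the branch point of introns. The labels name 1 hairpin construct and do not say whether the cells were clones or whether each library had its own culture. The spread behind each p-value is that of these 3 libraries a group and may be technical. The promoter that drives the MYC transgene is not given in the sources used here.

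Ribosomal proteins are made in large and nearly matched amounts, enter the nucleus, and are built onto ribosomal RNA in the nucleolus. Their messages begin with a pyrimidine tract, the 5′ terminal oligopyrimidine (TOP) tract, through which mTOR and LARP1 control their translation. Many of the genes carry small nucleolar RNA (snoRNA) genes in their introns, and most have left numerous processed pseudogenes, intronless copies of the message, in the mouse genome. MYC is known as an activator of ribosomal protein genes.

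Sequences at the transcription start are shown first, because the TOP tract is the feature that this family is known for. The windows run from 15 bases before to 25 bases from the start of the RefSeq annotation of GRCm38.p6, and capitals mark the longest run of at least 7 C or T letters that begins with C.
Rps12, chr10:23787185-23787224, minus strand: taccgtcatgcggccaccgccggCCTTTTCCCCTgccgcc
Rpl13a, chr7:45128721-45128760, minus strand: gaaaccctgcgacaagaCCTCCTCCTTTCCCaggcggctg
Rps10, chr17:27635220-27635259, minus strand: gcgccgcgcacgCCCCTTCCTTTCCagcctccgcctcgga
Rpl11, chr4:136053369-136053408, minus strand: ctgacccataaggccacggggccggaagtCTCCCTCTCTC
Rpl41, chr10:128549144-128549183, minus strand: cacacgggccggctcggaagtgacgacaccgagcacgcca
Rpl41 has no such run in this window, and neither have Rplp0 and Rpl5, whose windows are not shown. The sequence table held 59 of the 82 members, and 33 of these (55.9%) had a run, against 20.6% of the 27025 genes in the table. Among large subunit members 20 of 34 had one, and among small subunit members 13 of 25. The search used only the strand that reads as the RNA does. A gene with several annotated starts was counted as having a run if any of its windows had one. A run of these letters is a description of the window and not a measured TOP tract.

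The knockdown was seen in the targeted gene. Sf3b3 had 10.3, 9.56 and 13.9 FPKM (fragments per length of gene, scaled to the library's size) in KD 1, 2 and 3, against 22.6, 28.7 and 29.2 FPKM in PLKO 1, 2 and 3. The groups do not overlap, and the log2 fold change was -1.26 (SE 0.23, limma adjusted p = 0.0372). Without KD 1, KD 2, PLKO 1 or PLKO 2 that adjusted p was between 0.125 and 0.189. Reads on listed genes ran between 15140441 and 17566101 per library.

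Of the marker lists for cell types, 5 of 15 hepatocyte genes were listed, and their summed level was 71.4 to 106.6 FPKM in KD and 75.6 to 99.7 FPKM in PLKO. Albumin, transthyretin and Hnf4a were not analysed here. The 3 listed leukocyte genes of 10 (Cd68, Cd79a and Lcp1) summed to 49.6 to 100.7 FPKM in KD, against 10.3 to 42.3 FPKM in PLKO, and the defining gene Ptprc was not analysed here. Lcp1 and Cd79a were called higher in KD by limma, with log2 fold changes of 4.48 and 3.77 (adjusted p = 0.0295 and 0.0468). Lcp1 had 1.93, 1.85 and 2.71 FPKM in KD, against 0.0766, 0.0693 and 0.166 FPKM in PLKO, and Cd79a had 4.88, 3.85 and 2.51 FPKM in KD, against 0.234, 0.0828 and 0.9498 FPKM in PLKO. The 6 listed fibroblast or stellate genes of 10 summed to 53.1 to 76.6 FPKM in KD, against 102.9 to 157.6 FPKM in PLKO. The part of these differences in the results that follow was not tested. In bulk RNA, fewer cells of a type and less RNA per cell cannot be told apart.

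Most ribosomal protein messages differed between KD and PLKO cells by less than the spread between libraries. The median log2 fold change (KD minus PLKO) was 0.05 over the 82 members, and -0.04 over all 10770 genes tested. Of the members 48 were above 0 and 34 below, and of all genes tested 5133 were above and 5637 below. With limma's adjusted p under 0.05, 0 of 82 members were called, against a background of 2.92% of all genes tested (1.12% higher and 1.79% lower). At an unadjusted p under 0.05 there were 5 of 82 (background 27.6%), and the voom fit on recovered reads called 0 (background 2.84%). The count was 6 with the replicate number as a block (background 19.3%) and 13 with array weights (background 33.4%). An absolute log2 fold change of at least 0.5 was reached by 11 members (13.4%), against 40.1% of all genes. The median absolute log2 fold change was 0.18 for members and 0.40 for all genes tested. The members' 95% confidence intervals lay within a 2-fold change in either direction for 65 of 82, and for the other 17 a change of that size lies inside the interval. Leaving out PLKO 1 turned the median to -0.02, and leaving out PLKO 3 raised it to 0.22. Without both libraries numbered 3, limma called 8 of 82 members, against a background of 27.9% of all genes.

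**Figure D1:**
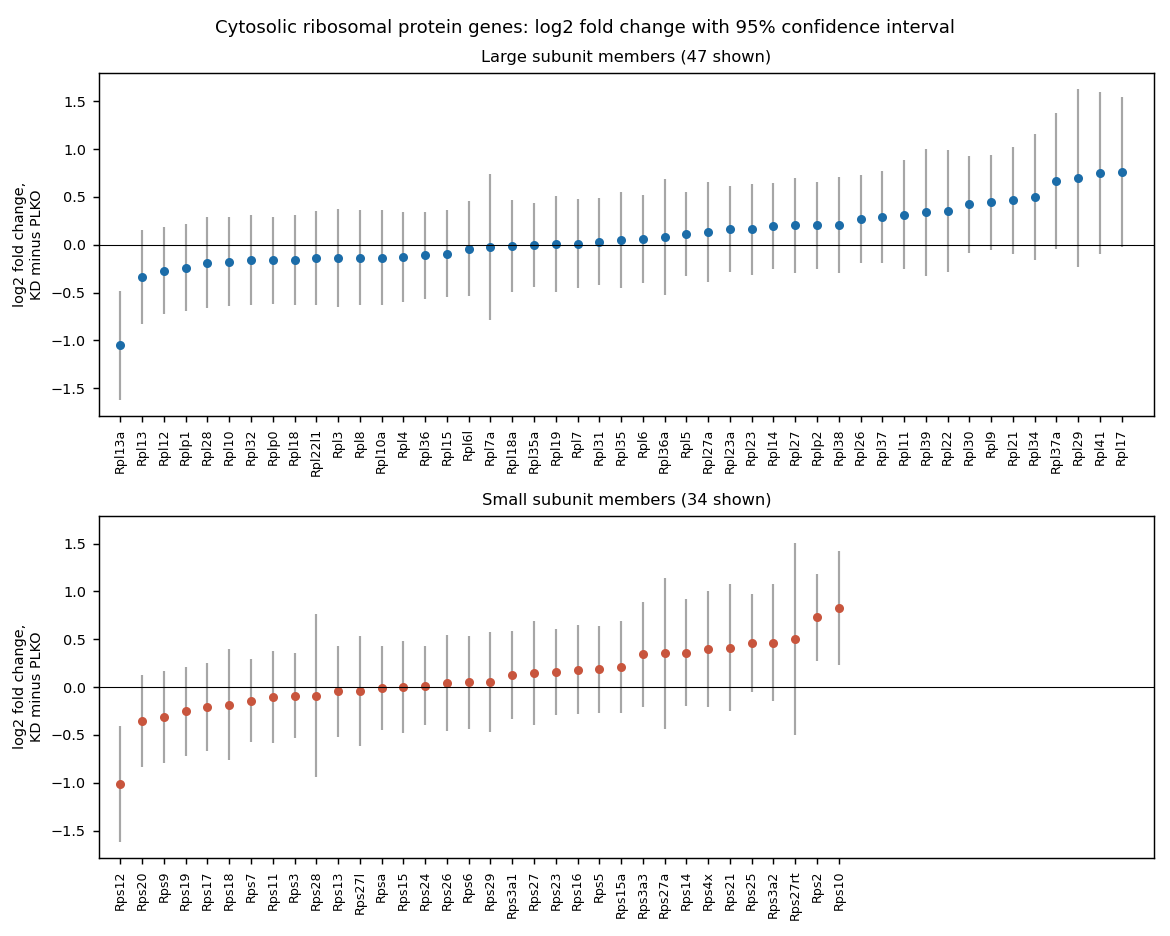
Log2 fold change (KD minus PLKO) of each member with its 95% confidence interval from limma, for the 47 large subunit members (upper panel) and 34 of the 35 small subunit members (lower panel). Rpl13a at -1.05 and Rps12 at -1.02 stand lowest, Rpl17 at 0.76 and Rps10 at 0.83 highest, and most intervals include 0.

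Large and small subunit members had nearly equal medians. The median log2 fold change was 0.0499 for the large subunit (27 above 0 and 20 below) and 0.0489 for the small subunit (21 above and 14 below). Within each library, the mean log2 FPKM of large subunit members exceeded that of small subunit members by 0.36, 0.26 and 0.32 in KD 1, 2 and 3 and by 0.29, 0.30 and 0.30 in PLKO 1, 2 and 3. The KD values lie on both sides of the PLKO values, so the groups overlap. Without PLKO 3 the difference between the subunits' medians was -0.10, and under the other alternatives it ran between -0.04 and 0.03.

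The members took up 5.63%, 6.01% and 5.69% of the listed reads in KD 1, 2 and 3, against 5.24%, 5.48% and 6.57% in PLKO 1, 2 and 3. PLKO 1 and PLKO 3 lie at the extremes, and the KD libraries lie between them. On the FPKM scale the members' median level was 314, and that of all genes tested 10.1. Rplp1, an acidic protein of the stalk that recruits translation factors, was highest with 1973, 2282 and 2033 FPKM in KD and 2166, 2519 and 2752 FPKM in PLKO. Rpl29, a large subunit protein, was lowest with 2.003, 1.79 and 1.22 FPKM in KD and 0.695, 1.38 and 1.06 FPKM in PLKO, groups that overlap. Its row rests on few reads, with 33, 30 and 22 in KD and 12, 24 and 17 in PLKO. FPKM divide by the merged exonic length of a gene, which for Rps24 is 6256 bases with a coding length of 399, so levels between members also depend on the annotation.

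Rpl13a and Rps12 had the lowest log2 fold changes of the members. Rpl13a, a large subunit protein known in human cells as part of an interferon-induced translational silencer, had 23.7, 31.2 and 41.1 FPKM in KD 1, 2 and 3, against 53.4, 75.9 and 66.7 FPKM in PLKO 1, 2 and 3. Every KD library lies below every PLKO library. The means were 32.0 ± 8.72 FPKM in KD and 65.4 ± 11.3 FPKM in PLKO (SD, n = 3 each), and the log2 fold change was -1.05 (95% confidence interval -1.62 to -0.48, limma adjusted p = 0.0579). The gene (ENSMUSG00000074129.14) spans bases 45125558 to 45128761 of chromosome 7 (GRCm38, minus strand) and was covered by 772, 1043 and 1522 reads in KD and by 2043, 2682 and 2231 reads in PLKO.

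Rps12, a protein of the small subunit's head that in Drosophila takes part in cell competition, had 89.8, 105.9 and 134.3 FPKM in KD, against 158.7, 292.1 and 227.7 FPKM in PLKO. Here too the groups do not overlap, with KD at 110 ± 22.5 FPKM and PLKO at 226 ± 66.7 FPKM (SD, n = 3 each). Its log2 fold change was -1.02 (95% confidence interval -1.62 to -0.41, limma adjusted p = 0.0641). The gene (ENSMUSG00000061983.7) spans bases 23785183 to 23787275 of chromosome 10 (minus strand).

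In the exact two-sided permutation test (20 label assignments), Rpl13a and Rps12 each gave p = 0.1, the smallest value possible with 3 libraries a group.

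With the replicate number as a block, limma's adjusted p was 0.00911 for Rpl13a and 0.0119 for Rps12, both lower in KD. The same fit called Rps2, Rps10 and Rpl17 higher. In all it called 6 of 82 members, 3 in each direction, against a background of 19.3% of all genes. The block assumes that equal numbers pair libraries, which no label states and which the correlations between libraries leave unsettled for numbers 1 and 2.

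The highest members were Rps10, Rpl17, Rpl41, Rps2, Rpl29 and Rpl37a, with log2 fold changes of 0.67 to 0.83. That of Rpl29 rests on few reads, with a 95% confidence interval of -0.23 to 1.63 (limma adjusted p = 0.295). Rps10, at the mRNA entry side of the small subunit and ubiquitinated by ZNF598 when ribosomes collide in human cells, had 8.17, 6.44 and 5.08 FPKM in KD, against 3.33, 3.26 and 4.40 FPKM in PLKO. Every KD library lies above every PLKO library, with a log2 fold change of 0.83 (95% confidence interval 0.23 to 1.43, limma adjusted p = 0.0915, 0.0441 with the block). Rps2, also near the mRNA entry channel, had 19.9, 16.5 and 15.01 FPKM in KD, against 9.87, 10.3 and 10.6 FPKM in PLKO. These groups do not overlap either, with a log2 fold change of 0.73 (95% confidence interval 0.27 to 1.18, limma adjusted p = 0.0697, 0.0361 with the block). Both genes gave p = 0.1 in the exact permutation test. Both levels are far under the members' median, which is taken up with their copies.

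Rpl17, which lines the exit tunnel of the large subunit, had 524.0, 350.8 and 594.2 FPKM in KD, against 252.4, 189.4 and 469.0 FPKM in PLKO. KD 2 lies below PLKO 3, so the groups overlap, and the log2 fold change was 0.76 (limma adjusted p = 0.192, 0.0361 with the block). Rpl41, the shortest ribosomal protein, had 966.7, 992.7 and 787.6 FPKM in KD, against 573.6, 296.3 and 932.9 FPKM in PLKO. The groups overlap through PLKO 3, and the log2 fold change was 0.75 (95% confidence interval -0.09 to 1.59, limma adjusted p = 0.223). Rpl37a, a zinc-binding protein of the large subunit, had 330.8, 342.5 and 286.5 FPKM in KD, against 187.3, 131.4 and 327.6 FPKM in PLKO, again with overlap through PLKO 3.

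**Figure D2:**
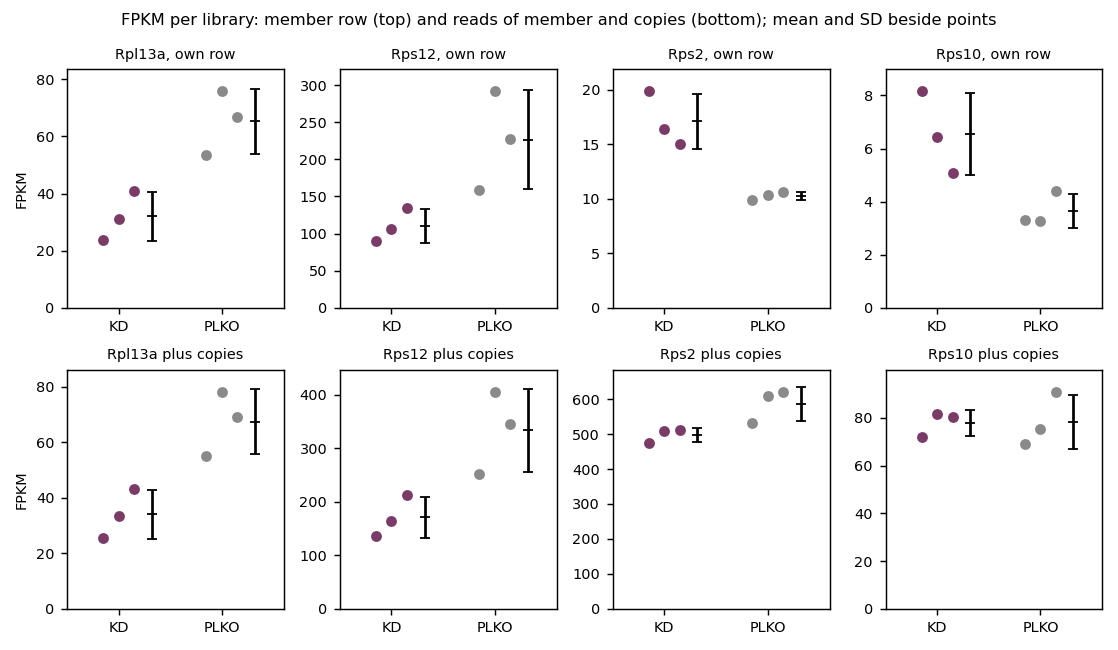
FPKM in each KD and PLKO library for 4 members (columns), from the member's own row (top) and from the reads of the member and its copies together, on the member's length (bottom); the bar beside the points is the mean with its SD (n = 3), and axes start at 0. Rpl13a and Rps12 are lower in every KD library in both rows of panels, while Rps2 and Rps10 are higher in every KD library only on their own rows.

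Over all members, the KD and PLKO values did not overlap for 7. Rps2, Rps10, Rpl9, Rpl30 and Rps3a3 were higher in every KD library, and Rpl13a and Rps12 were lower. These are 8.54% of the members, against a background of 32.1% of all genes tested (13.4% higher and 18.8% lower). For Rpl9, at the base of the stalk, the gap was small, with 210.2, 221.2 and 207.0 FPKM in KD against 136.1, 136.4 and 205.7 FPKM in PLKO. The gaps of Rpl30 and Rps3a3 were small too. Rpl30 had 33.2 FPKM in its lowest KD library and 33.0 FPKM in its highest PLKO library. For Rps3a3 these values were 3.57 and 3.46 FPKM, on 39 to 61 reads per library. Rpl30 and Rps3a3 are named because the count is small, after their values were seen.

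Processed pseudogenes share most of their sequence with the member they came from, and how the authors' counting treated reads that match both is not given in the sources used here. Other listed genes were searched for copies with at least 90% identity to a member over at least 50% of its coding sequence. This found 106 copies of 51 members. Over all members 9.41% of the summed reads lay on copies, but for 6 members copies held more than 50%. These were Rpl34 (97.6%), Rps2 (97.5%), Rps10 (93.6%), Rps18 (93.3%), Rpl17 (62.5%) and Rpl21 (53.6%).

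Stretches of 90 bases of the coding sequences are shown for 2 of these members and their copies, because they show how alike the reads are, and for Rps12. Capitals mark the bases at which a member and its copy differ, and positions count from the first coding base.
Rps10, chromosome 17, bases 384 to 473: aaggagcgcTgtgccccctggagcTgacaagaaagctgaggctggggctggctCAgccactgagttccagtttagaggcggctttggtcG
Rps10-ps2, chromosome 16: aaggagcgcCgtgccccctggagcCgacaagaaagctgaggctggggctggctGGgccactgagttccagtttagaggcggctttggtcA
Rpl34, chromosome 3, bases 43 to 132: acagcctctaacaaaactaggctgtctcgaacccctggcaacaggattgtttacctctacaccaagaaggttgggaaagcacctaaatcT
Rpl34-ps1, chromosome 6: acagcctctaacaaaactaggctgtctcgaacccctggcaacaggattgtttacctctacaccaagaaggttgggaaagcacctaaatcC
Rps12 and Rps12-ps3, chromosomes 10 and 19, bases 1 to 90: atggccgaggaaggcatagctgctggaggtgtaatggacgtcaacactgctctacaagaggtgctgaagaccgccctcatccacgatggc
All 5 differences between Rps10 and Rps10-ps2 over the 495 coding bases lie in the stretch shown. Rpl34 and Rpl34-ps1 differ at 2 of 351 coding bases, and Rps12 and Rps12-ps3 are identical over all 396.

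Summing the reads of each member with those of its copies lowered the log2 fold change of each of these 6 members, by unequal amounts. Rps10 with its copies had 71.8, 81.8 and 80.6 FPKM in KD, against 68.9, 75.2 and 90.9 FPKM in PLKO, on the member's length. The groups then overlap, with a log2 fold change of 0.0021 (95% confidence interval -0.44 to 0.44). Rps2 with its copies had 475.6, 507.9 and 510.3 FPKM in KD, against 530.4, 608.3 and 620.6 FPKM in PLKO. Its direction turned, with every KD library below every PLKO library and a log2 fold change of -0.23 (95% confidence interval -0.65 to 0.19, limma adjusted p = 0.434). The log2 fold change of Rpl34, a large subunit protein, was 0.50 on its own row and -0.05 with its copies, and that of Rpl17 was 0.76 and 0.21. Rpl21 moved least of the members that had been above 0, with 0.46 on its own row and 0.37 with its copies, and Rps18 had -0.18 and -0.28.

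For Rpl17, the rows of the gene and of Rpl17-ps10, a copy with 99.3% identity, ran opposite ways within the KD group. Rpl17-ps10 had 291.3, 552.9 and 299.0 FPKM in KD 1, 2 and 3, against 451.0, 521.6 and 525.2 FPKM in PLKO 1, 2 and 3. It was highest in KD 2, where Rpl17 was lowest of the KD libraries. Rpl17 with its copies had 1079, 1121 and 1176 FPKM in KD, against 843.1, 856.9 and 1265 FPKM in PLKO.

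Listed copies held 33.5% of the summed reads of Rps12 but 3.98% of those of Rpl13a, so summing could move the value of Rpl13a only little. The lower values of Rpl13a and Rps12 remained when copies were summed in. Their log2 fold changes were then -1.005 and -0.96, and their limma adjusted p was 0.0608 and 0.0643. With the block it was 0.0108 and 0.0139, and that fit called 3 members lower and 0 higher, against a background of 19.5% of all genes. Rps12-ps3, annotated as protein coding and with the coding sequence of Rps12, had 189.0, 236.5 and 323.4 FPKM in KD, against 379.9, 466.1 and 481.4 FPKM in PLKO. The groups do not overlap and the log2 fold change was -0.85 (limma adjusted p = 0.0736), but reads of Rps12 and Rps12-ps3 within the coding sequence cannot be told apart. Of the 106 copies, 2 were called, against the background of 2.92%. These were Gm12630, a copy of Rpl7a, which was higher (5.52, 6.60 and 2.48 FPKM in KD, against 0.154, 0.306 and 0.557 FPKM in PLKO), and Rps19-ps3, which was lower (2.71, 1.77 and 3.23 FPKM in KD, against 7.93, 7.02 and 6.21 FPKM in PLKO). Both were chosen for being called.

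**Figure D3:**
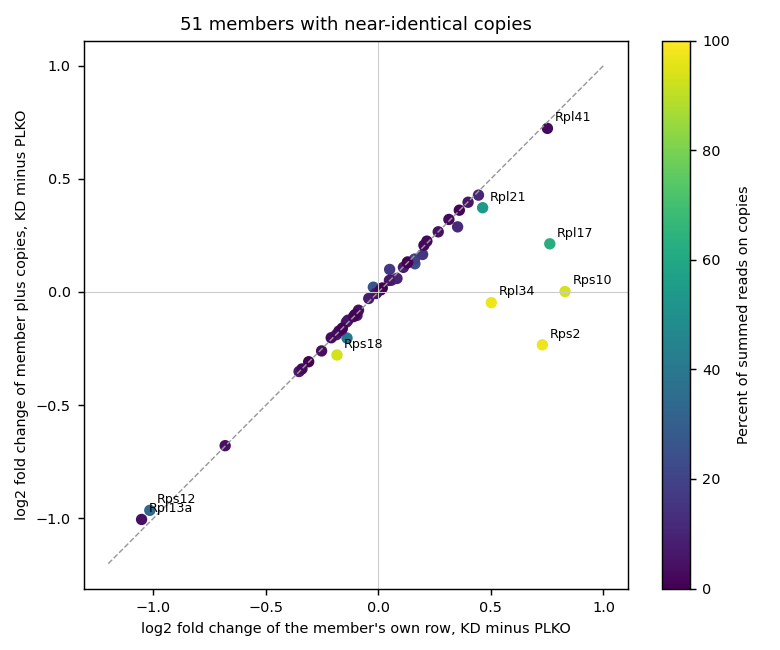
Log2 fold change (KD minus PLKO) of 51 members from the own row (horizontal axis) and from the summed reads of member and copies (vertical axis), coloured by the percent of summed reads on copies. Rps2, Rps10 and Rpl34, with over 90% on copies, lie far below the dashed line of equality, and Rpl13a and Rps12 lie on or near it.

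The spread between libraries was unequal in the 2 groups. A member's range over the 3 libraries had a median of 0.25 in KD and 0.52 in PLKO on the log2 scale, against 0.55 in KD and 0.58 in PLKO for all genes tested. The PLKO range was the wider one for 70 of 82 members (85.4%), against 53.1% of all genes. For 75 members (91.5%) the PLKO range exceeded the absolute log2 fold change, which held for 65.0% of all genes. PLKO 3 was the highest of its group for 60 members and PLKO 1 the lowest for 60. The members' median deviation from their own 6-library mean was 0.02, 0.11 and -0.01 in KD 1, 2 and 3, and -0.23, -0.04 and 0.24 in PLKO 1, 2 and 3.

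**Figure D4:**
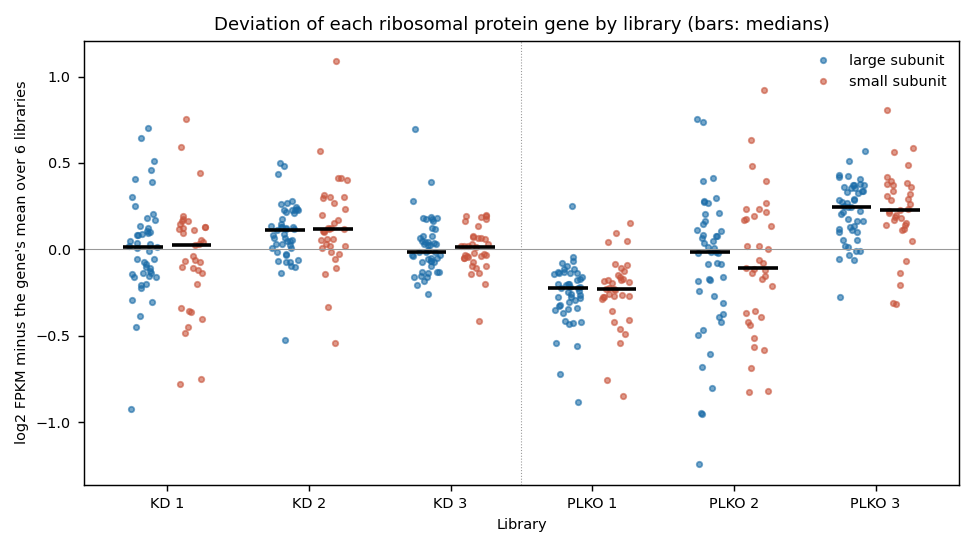
Log2 FPKM of each member minus its mean over the 6 libraries, by library, with the large subunit in blue and the small subunit in red; bars are medians. Both subunits sit low in PLKO 1 and high in PLKO 3, and the KD libraries lie between.

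The PLKO libraries also differed from one another along the members' coding length. Against the mean of PLKO 1 and PLKO 3, the log2 values of PLKO 2 ran with coding length over the 79 members that have one (Spearman correlation 0.39, a description over genes that share these libraries). The 20 members with the shortest coding sequences, up to 357 bases, had a median of -0.35 with 16 below 0, and the other 59 a median of 0.02 with 27 below 0. PLKO 3 against the mean of PLKO 1 and PLKO 2 ran the opposite way (Spearman correlation -0.42), with a median of 0.59 for the 20 shortest and 0.31 for the others. PLKO 1 against the mean of PLKO 2 and PLKO 3 did likewise (Spearman correlation -0.26). These differences use the same libraries and cancel out for each gene, so their directions are not independent. Rpl41, whose coding sequence is 75 bases, had 296.3 FPKM in PLKO 2, against 573.6 and 932.9 FPKM in PLKO 1 and PLKO 3. Rps28, with 207 coding bases, had 74.8 FPKM in PLKO 2, against 147.2 and 232.2 FPKM in PLKO 1 and PLKO 3. Rpl39, with 153, had 130.8 FPKM in PLKO 2, against 208.2 and 305.1 FPKM in those libraries. The log2 fold changes of KD minus PLKO tended to be higher for shorter coding sequences (Spearman correlation -0.24). The Spearman correlation was -0.29 without PLKO 1, -0.04 without PLKO 2 and -0.31 without PLKO 3. Without PLKO 2 the 20 shortest members had a median log2 fold change of 0.05, and without PLKO 3 one of 0.36, against 0.17 with all libraries.

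**Figure D5:**
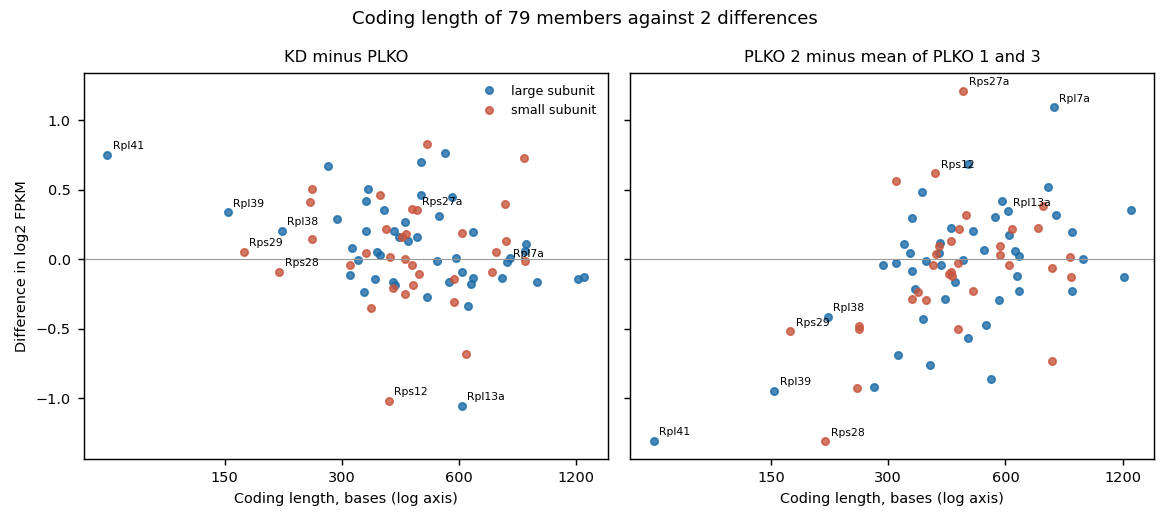
Difference in log2 FPKM of 79 members against coding length in bases (log axis), for KD minus PLKO (left) and for PLKO 2 minus the mean of PLKO 1 and PLKO 3 (right); blue is the large and red the small subunit. In the right panel the shortest members, such as Rpl41, Rpl39 and Rps28, lie below 0, and Rps27a and Rpl7a lie highest.

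By place in the ribosome, no group of members held a call, against a background of 2.92% of all genes tested. In groups this small, 0 calls are near that share and say nothing about place. The stalk and its base (Rplp0, Rplp1, Rplp2 and Rpl12), where translation factors bind, had a median log2 fold change of -0.20. Rplp1 stood at -0.24, Rplp0 at -0.16 and Rpl12 at -0.27, while Rplp2, the partner of Rplp1, stood at 0.20. Rpl5 and Rpl11, which carry the ribosomal RNA of the central protuberance into the ribosome and bind MDM2 when assembly fails, stood at 0.11 and 0.31. Rpl11 had 298.2, 339.4 and 306.2 FPKM in KD and 218.0, 203.5 and 364.1 FPKM in PLKO, groups that overlap through PLKO 3. Around the exit tunnel 8 of 9 members were above 0, against 48 of all 82 members. The median of the 9 was 0.16, with Rpl17 taken on its own row, and Rpl4 alone was below 0 at -0.13. The head of the small subunit had a median of -0.04 (14 members, 7 on each side of 0) and its body 0.05 (17 members, 11 above 0). The 17 members that are known as Diamond-Blackfan anaemia genes in humans, among them Rps19 at -0.25, had a median of 0.05.

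Members with snoRNA genes inside had a median near that of the others but reached lower values. The annotation places snoRNA genes within 30 of the 82 members, with a median log2 fold change of -0.01, against 0.05 for the other 52. Log2 fold changes ran from -1.05 to 0.76 among the 30 and from -0.31 to 0.83 among the 52. Rpl13a holds 4 snoRNA genes and Rps12 holds 3, and these had the lowest values of all members. Over the 9 members with at least 3 the median was -0.02, and Rpl17, also with 3, was at 0.76 on its own row. An absolute log2 fold change of at least 0.5 was reached by 16.7% of the 30, 11.5% of the 52 and 44.4% of the 9, against 40.1% of all genes. The fit with the block called 2 higher and 3 lower among the 30, and 1 higher and 0 lower among the 52 (background 19.3%). Whether snoRNA genes bear on these values was not tested.

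Paralogs followed no common direction. Rpl22l1, which can take the place of Rpl22 in the large subunit, had 16.2, 16.3 and 18.7 FPKM in KD and 15.8, 23.5 and 17.8 FPKM in PLKO, and its log2 fold change was -0.14 beside 0.35 for Rpl22. Rps27l, a p53-regulated relative of Rps27, was at -0.04 beside 0.15 for Rps27. Rps27rt, an intronless relative of Rps27, had 160.8, 452.7 and 222.6 FPKM in KD and 125.6, 141.7 and 319.4 FPKM in PLKO. KD 2 stands apart from the other KD libraries there, and the log2 fold change was 0.50 with a 95% confidence interval from -0.50 to 1.51. For the other parents the values were -0.14 for Rpl3, -0.18 for Rpl10, 0.08 for Rpl36a, 0.34 for Rpl39 and 0.40 for Rps4x. None was called, against a background of 2.92% of all genes tested.

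Ribosomal proteins under other names and other TOP messages held no call. Fau, which encodes a ubiquitin-like protein fused to a small subunit protein, was at 0.23, and Rack1, a scaffold on the small subunit's head, at -0.06. Over the 21 other TOP genes the median was -0.02 in log2 fold change, with 0 called by limma (background 2.92%) and 3 at an unadjusted p under 0.05 (background 27.6%). In 4 of them (19.0%, against 32.1% of all genes) the groups do not overlap. Among them the snoRNA host Gas5 had 41.7, 37.1 and 33.0 FPKM in KD, against 45.1, 81.0 and 59.9 FPKM in PLKO (log2 fold change -0.70, limma adjusted p = 0.115). The translation initiation subunits Eif3f and Eif3h were at 0.53 and 0.60, both with every KD library above every PLKO library.

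Genes that act on TOP messages or on the assembly of ribosomal proteins held 1 call. Eif4ebp1, a repressor of cap-dependent translation that mTOR inactivates, had 52.8, 61.8 and 57.0 FPKM in KD, against 133.4, 139.5 and 86.2 FPKM in PLKO (log2 fold change -1.04, limma adjusted p = 0.0503). Its relative Eif4ebp2 was at 0.76 and the kinase gene Rps6kb1 at -0.74, with adjusted p of 0.0756 and 0.0645 by limma. These 3 had the lowest p of 10 genes listed as acting on TOP messages. The median of the 10 was -0.11, with 5 above 0 and 5 below, and limma called 0 of them (background 2.92%). The groups do not overlap for 40.0% of the 10, against 32.1% of all genes. Of 23 chaperones and late assembly factors, 17 were below 0, and of all 10770 genes tested 5637 were. The median of the 23 was -0.37, and 1 was called, lower, against a background of 2.92%. The groups do not overlap for 7 of the 23 (30.4%), against 32.1% of all genes, so both shares are near the background. The call was Heatr3, which in human cells serves the nuclear import of RPL5, with 9.78, 8.66 and 15.1 FPKM in KD, against 22.2, 37.8 and 30.0 FPKM in PLKO (log2 fold change -1.43, limma adjusted p = 0.0433). Riok1, a kinase of small subunit maturation, and Rpf2, which brings Rpl5 and Rpl11 into the large subunit, were at -1.17 and -0.94 with adjusted p of 0.0579 and 0.0629. The 21 nucleolar biogenesis genes had a median of -0.37 with 17 below 0, and limma called 0 (background 2.92%). At an unadjusted p under 0.05 there were 6 of the 21, near the background of 27.6%. The 12 ribosome quality control genes had a median of 0.03. Limma called 0 of them (background 2.92%), and 0 had an unadjusted p under 0.05 (background 27.6%).

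Mitochondrial ribosomal proteins, which build the ribosome of the mitochondrion, were at a median of -0.25 in log2 fold change over 78 genes, with 17 above 0 and 61 below. In 30 of them (38.5%) every KD library lies below every PLKO library, against 18.8% of all genes, and in 0 above, against 13.4%. Calls were made for 2, a share near the background of 2.92%: Mrpl49 at -1.06 and Mrps24 at -1.24, with limma adjusted p of 0.0435 and 0.0325. Without KD 1, KD 2, PLKO 1 or PLKO 2, limma called 0 of 10770 genes, so the calls of Heatr3, Lcp1, Cd79a, Mrpl49, Mrps24, Gm12630 and Rps19-ps3 were lost in those fits too.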

How the data were processed

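The authors deposited 1 table of log2 FPKM per gene and library. The build is GRCm38 and FastQC 0.11.7 was used, per the submitters' processing notes. The aligner, counter, strand setting and gene filter were not given in the sources used here. Its values hold a prior of 2 reads, and whole reads were recovered for all 11866 genes within 0.01 reads (tolerance), which gave the depths (15140441 to 17566101 reads).

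Limma 3.58.1 (R 4.3.3) with a mean-variance trend was fitted on the deposited log2 values of 10770 genes (mean FPKM 1 or more), with the group alone (4 residual degrees of freedom) and Benjamini-Hochberg adjustment over all of them. FPKM printed are powers of 2 of the deposited values, and fold changes of low genes are understated by the prior. Symbols matched GENCODE M21 for 99.4% of genes, with 1-based GRCm38 coordinates. Copies were found with BLAST 2.17.0, and promoter windows came from RefSeq. The fit was tested on simulated data.

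Members and lists were chosen with earlier results of these data known. Named were Sf3b3, per subunit the 5 members with the lowest p, the 3 highest and 3 lowest fold changes and the 2 highest levels, every listed paralog with its parent, stalk and Rpl5-Rpl11 members, and up to 3 genes with the lowest p of each other list; genes named beside a list's count, for their copies or for a position fall outside this rule and were chosen after their values were seen. Some genes that the rule takes are not reported here.

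Deviations from the group means correlated at 0.18, 0.29 and 0.50 between libraries numbered 1, 2 and 3, all above 0.1, so equal numbers are treated as pairs in the fit with the replicate block, which stands beside the fit with the group alone. No label states this pairing, and it rests on the 0.1 limit alone. KD 1 correlated more with PLKO 2 (0.30) than with PLKO 1 (0.18). KD 2 correlated about equally with PLKO 1 (0.27) and PLKO 2 (0.29). The correlations thus do not single out equal numbers as pairs for libraries 1 and 2, and every adjusted p with the block depends on that pairing.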

Additional observations from a re-analysis of the deposited data

How the results depend on the processing

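The number of members called was 0 by limma on the deposited values, and 0 without a filter, with a mean FPKM of at least 5, on log2(FPKM + 1), after quantile normalization, centred on other genes, by voom with TMM factors on recovered reads, and with trends of length, exon number and GC removed. It was 6 with the replicate block (19.3% of all genes called) and 6 with the trends removed and the block (2251 of 10708 genes called). With array weights it was 13, 10 higher and 3 lower, where 33.4% of all genes were called. Without both libraries numbered 3 it was 8, 6 higher and 2 lower, where 27.9% of all genes were called. Summing copies was added after seeing the data and gave 0, or 3 with the block. Leaving out 1 library gave 0 to 4 members, 4 without KD 3 and 3 without PLKO 3. The share of all genes called without KD 3 or without PLKO 3 is not given here, so these counts cannot be set against it. Where 1 library numbered 1 or 2 was left out, limma called 0 of 10770 genes. The median log2 fold change of the members ran between -0.02 and 0.22. The difference between the subunits' medians ran between -0.10 without PLKO 3 and 0.021 without PLKO 1 when 1 library was left out. Of 639 values for 32 named genes over the alternatives, 40 came to pass the threshold, 4 (Sf3b3) no longer did, and 588 stayed on their side of it or moved by less than the replicates' spread. Of the rest 5 moved by more, and 2 turned round, which were Rps2 at -0.23 with copies summed in, with and without the block. Among genes near 0, 19 values of 7 genes also changed sign without a call. Members with few reads, such as Rpl29, are the least precise. The cause of these shifts was not tested.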
